A study of Saccharomyces cerevisiae with 15 samples.

Results

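The mRNA levels of BNA1, BNA2, BNA3, BNA4, BNA5, BNA6 and TNA1 were followed after Zpr1 depletion in the budding yeast Saccharomyces cerevisiae. These 7 genes, of the 7127 gene rows in the count table, were picked by name for their place in NAD synthesis through kynurenine. They were picked with earlier results of the same libraries in view, and which comparison drew attention to them is not recorded. Their changes are therefore given as a description, with standard errors and no p-values, and their counts of calls are set beside the share of all genes called without being read as evidence. TNA1 encodes a nicotinic acid transporter rather than an enzyme of kynurenine breakdown, and BNA7, which encodes a further enzyme of the route, is given below among the related genes.

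The cells were of strain W303 with genotype ZPR1-AID, whose Zpr1, a chaperone of translation elongation factor eEF1A, bears a tag that lets auxin-like compounds trigger its breakdown. Polyadenylated RNA was sequenced in 15 libraries. The groups, of 3 libraries each, were untreated cells at 0 h, cells after 0.5 h, 1.5 h and 3 h with 5-Ph-IAA, an auxin derivative, and cells kept for 3 h in its solvent DMSO. The degron was shared by every group and no library came from cells without it, so effects of the compound and of the depletion cannot be told apart. DMSO was sampled only at 3 h, so at the earlier times the compound, the solvent and the time in culture cannot be told apart. The labels do not say whether replicates were separate cultures, and all tests measure only the spread between these libraries, which may be technical. In bulk RNA a change in every cell and a change in some cells cannot be told apart.

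Library totals ran from 2530145 to 21282576 counts. Library 2 of 5-Ph-IAA at 3 h had the lowest total, and mitochondrially encoded genes held 4.62% of its counts, against 0.0158% to 0.786% in the other libraries. Replicates were less alike at 3 h, with Spearman correlations across genes of 0.954 to 0.975 under 5-Ph-IAA and 0.97 to 0.985 in DMSO, than in untreated cells (0.987 to 0.992). The mRNA of ZPR1 itself stood at 124 ± 46.4 CPM (counts per 1000000 after TMM scaling, mean and SD, n = 3) under 5-Ph-IAA at 3 h and 94.6 ± 50.7 CPM in DMSO, and at 153 ± 32.3, 289 ± 12.9 and 240 ± 22 CPM in untreated cells and at 0.5 h and 1.5 h of 5-Ph-IAA. A degron removes protein, so this level does not check the depletion.

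NAD is the electron carrier of most cellular oxidations and a substrate of the sirtuin deacetylases. Yeast makes it from tryptophan through kynurenine and quinolinate, and also recycles nicotinamide and imports nicotinic acid. Bna2, a dioxygenase, opens the tryptophan ring in the committed step, Bna4 hydroxylates kynurenine, Bna5 cleaves hydroxykynurenine, Bna1 opens the ring of hydroxyanthranilate, and Bna6 joins quinolinate to phosphoribose to give nicotinic acid mononucleotide. Bna3 is an aminotransferase that diverts kynurenine to kynurenic acid, off the path to NAD. Tna1 is the high-affinity permease for nicotinic acid. The sirtuin Hst1 with Sum1 and Rfm1 is known to repress BNA genes when NAD is ample, and the activators Bas1 and Pho2, best known from purine synthesis, have been reported to act on them too.

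On build R64 the genes, each with 1 coding exon, lie at chrX:471138-471671 (BNA1, YJR025C), chrX:578860-580221 (BNA2, YJR078W), chrX:323386-324720 (BNA3, YJL060W), chrII:39145-40527 (BNA4, YBL098W), chrXII:605758-607119 (BNA5, YLR231C), chrVI:244279-245166 (BNA6, YFR047C) and chrVII:1012485-1014089 (TNA1, YGR260W). BNA1, BNA5 and BNA6 are on the minus strand and the others on the plus strand. All 7 passed the filter on low counts.

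Promoter windows were read from the R64 genome, which is that of strain S288C, so W303 may differ in single bases. Each window holds the 250 bases before the start codon and the first 50 of the coding sequence. The core of Bas1 and Gcn4 sites, TGACTC, was searched on both strands, with TGACTCA, a fuller Gcn4 site that contains it, and GNCACAAA, a core of the element that Sum1 reads. TGACTC lay in the windows of 5 of the 7 genes and in 7.98% of the windows of 6001 protein-coding genes. The windows of BNA1, BNA4 and BNA6 are shown because these are the genes of the main route whose level was higher at 3 h and which carry TGACTC upstream of the start codon, and that of BNA3 because its level was also higher and its window held no match. BNA1, BNA4 and BNA6 were thus picked on level and motif together, so their pairing here carries no weight. Capitals mark the matches.
BNA1 (chrX:471622-471921, minus strand): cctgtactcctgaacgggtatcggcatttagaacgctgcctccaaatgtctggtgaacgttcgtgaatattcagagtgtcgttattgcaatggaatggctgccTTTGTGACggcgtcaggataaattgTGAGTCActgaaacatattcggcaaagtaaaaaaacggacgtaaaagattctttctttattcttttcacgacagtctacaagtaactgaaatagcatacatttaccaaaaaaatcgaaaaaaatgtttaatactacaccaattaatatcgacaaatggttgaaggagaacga
BNA4 (chrII:38895-39194, plus strand): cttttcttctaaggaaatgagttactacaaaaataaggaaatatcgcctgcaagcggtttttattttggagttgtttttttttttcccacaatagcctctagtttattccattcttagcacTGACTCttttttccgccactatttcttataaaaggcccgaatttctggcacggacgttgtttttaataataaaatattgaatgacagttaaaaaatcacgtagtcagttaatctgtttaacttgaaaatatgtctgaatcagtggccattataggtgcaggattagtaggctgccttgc
BNA6 (chrVI:245117-245416, minus strand): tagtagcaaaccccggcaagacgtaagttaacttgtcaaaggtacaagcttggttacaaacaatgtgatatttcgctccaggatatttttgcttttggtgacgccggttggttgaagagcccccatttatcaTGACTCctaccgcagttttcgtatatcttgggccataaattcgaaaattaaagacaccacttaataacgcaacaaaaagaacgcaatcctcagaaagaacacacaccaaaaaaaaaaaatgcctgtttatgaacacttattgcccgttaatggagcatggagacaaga
BNA3 (chrX:323136-323435, plus strand): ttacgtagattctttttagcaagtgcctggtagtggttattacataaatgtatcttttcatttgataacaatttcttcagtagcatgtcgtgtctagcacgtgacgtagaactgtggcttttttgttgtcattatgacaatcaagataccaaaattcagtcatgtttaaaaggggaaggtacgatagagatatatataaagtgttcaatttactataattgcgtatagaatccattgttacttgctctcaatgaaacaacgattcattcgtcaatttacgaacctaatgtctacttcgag
In BNA4 the match lay 124 to 129 bases before the start codon, in BNA6 113 to 118 and in BNA1 116 to 121, where the motif is on the opposite strand and the printed one reads GAGTCA. The BNA1 match was also the only match among the 7 genes to TGACTCA, found in 2.73% of all windows, and the BNA1 window held the only GNCACAAA (140 to 147 bases before the start codon), found in 4.32% of all windows. In BNA2 the match lay 9 to 14 bases before the start codon, and in TNA1 it lay inside the coding sequence at its bases 22 to 27. BNA2 thus also carried the motif upstream, while its level at 3 h overlapped that in DMSO (-0.28 log2, SE 0.29). BNA5 had no match to any of the 3 motifs. A match is a stretch of letters and not a measured site.

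Levels between genes were compared per kilobase of coding length. In untreated cells BNA1 stood highest at 223 ± 7.29 CPM per kb (SD, n = 3), followed by TNA1 at 138 ± 20.4 and BNA6 at 126 ± 2.25, whose libraries overlapped. BNA4 had 46.6 ± 2.28 CPM per kb. BNA5 at 24.1 ± 1.64 and BNA3 at 21.6 ± 2.04 overlapped, and BNA2, of the committed step, was lowest at 6.84 ± 0.912 CPM per kb.

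At 3 h of 5-Ph-IAA the order was BNA1 at 774 ± 113 CPM per kb, BNA6 at 196 ± 7.65, TNA1 at 98.8 ± 18.1, BNA4 at 73 ± 3.6, BNA3 at 51.8 ± 3.82, BNA5 at 23.7 ± 2.61 and BNA2 at 5.73 ± 2.36, with no overlap between neighbours in the order. BNA6 thus stood clear of TNA1, and BNA3 of BNA5, pairs that overlapped in untreated cells. In DMSO at 3 h, BNA1 had 278 ± 42.3 CPM per kb. BNA6 at 151 ± 2.86 and TNA1 at 149 ± 23.1 overlapped in DMSO, as did BNA4 at 49.3 ± 11 and BNA3 at 36.9 ± 2.34, while BNA5 had 25.5 ± 4.12 and BNA2 7.4 ± 2.59 CPM per kb.

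**Figure D1:**
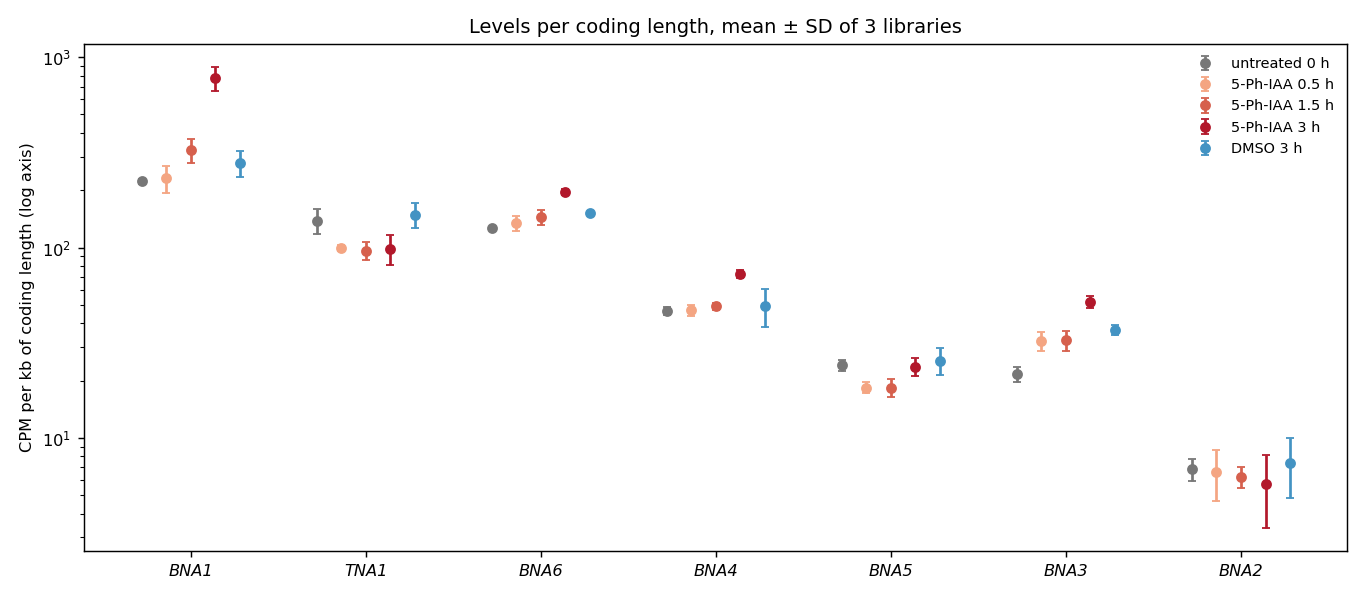
Level of each gene per kilobase of coding length (TMM-scaled CPM per kb, log axis) in the 5 groups, as mean and SD of 3 libraries. BNA1 is highest and BNA2 lowest in every group, and BNA1 stands at 774 CPM per kb after 3 h with 5-Ph-IAA and at 278 after 3 h with DMSO.

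Setting 5-Ph-IAA against DMSO, both sampled at 3 h, holds solvent and time in culture equal. BNA1 was the member with the largest difference, 2.78 times the DMSO level, and BNA3, BNA4 and BNA6 were 1.3 to 1.49 times as high. TNA1 was lower, at 0.667 times the DMSO level, and BNA2 and BNA5 stayed within the spread of the libraries. In edgeR's quasi-likelihood fit (Benjamini-Hochberg adjusted p under 0.05 over all 6069 genes tested), 4 of the 7 genes passed as higher, where 5.07% of all genes did, and 1 as lower, where 2.87% did. The libraries of the 2 groups did not overlap for the same 5 genes, 4 higher (9.75% of all genes) and 1 lower (10.2%). The median of the 7 was 0.38 log2, against -0.02 over all genes.

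BNA1 had 348, 423 and 468 CPM in libraries 1, 2 and 3 of 5-Ph-IAA at 3 h, against 150, 125 and 170 CPM in DMSO. Each 5-Ph-IAA library lay above each DMSO library by more than the whole range of either group. The log2 difference was 1.48 (SE 0.15), and it stayed between 1.36 and 1.58 when any single library was left out. BNA6, which encodes the enzyme after Bna1 in the route, had 167, 178 and 179 CPM under 5-Ph-IAA against 136, 131 and 135 CPM in DMSO. Its groups did not overlap, and its difference was 0.38 log2 (SE 0.1). BNA1 and BNA6 together hold the last steps before the route meets the salvage of nicotinic acid.

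BNA4, the kynurenine hydroxylase, had 104, 95.3 and 103 CPM under 5-Ph-IAA at 3 h and 72.2, 51.4 and 81 CPM in DMSO. The 5-Ph-IAA libraries were all higher, while those of DMSO spread more widely (68.2 ± 15.2 CPM) than those of 5-Ph-IAA (101 ± 4.98 CPM). The log2 difference was 0.57 (SE 0.13). BNA3, of the side branch to kynurenic acid, had 69.7, 74 and 63.8 CPM under 5-Ph-IAA against 47.2, 52.9 and 47.8 CPM in DMSO, again with no overlap, and a difference of 0.48 log2 (SE 0.12). TNA1 went the other way, with 142, 141 and 192 CPM under 5-Ph-IAA and 226, 210 and 281 CPM in DMSO. Its groups did not overlap, though library 3 was the highest within each, and the difference was -0.58 log2 (SE 0.15).

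BNA5, the kynureninase, had 28.2 to 34.9 CPM under 5-Ph-IAA and 28.8 to 40 CPM in DMSO, overlapping groups that differed by -0.11 log2 (SE 0.14). BNA2 had 5.04 to 11.3 CPM under 5-Ph-IAA against 7.44 to 14.1 CPM in DMSO, and -0.28 log2 (SE 0.29). BNA2 had 13 to 208 counts in the 5-Ph-IAA libraries and 89 to 227 in those of DMSO, and its SE was the largest of the 7 genes in this comparison.

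The calls other than that of BNA1 depended on the fit. With only the 6 libraries of the compared groups fitted, BNA1 alone passed. With scaling on total counts alone, BNA1, BNA4 and TNA1 passed, and 49.7% of all called genes were higher, against 63.9% with TMM. Without library 2 of 5-Ph-IAA, the one with the high mitochondrial share and the lowest total, BNA1 and BNA4 passed, and the same held without library 1 of DMSO. BNA6 alone was lost without library 3 of 5-Ph-IAA or library 2 of DMSO. Without library 1 of 5-Ph-IAA or library 3 of DMSO, BNA1, BNA4 and BNA6 passed. The sign of each of the 5 differences was the same in all these fits.

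**Figure D2:**
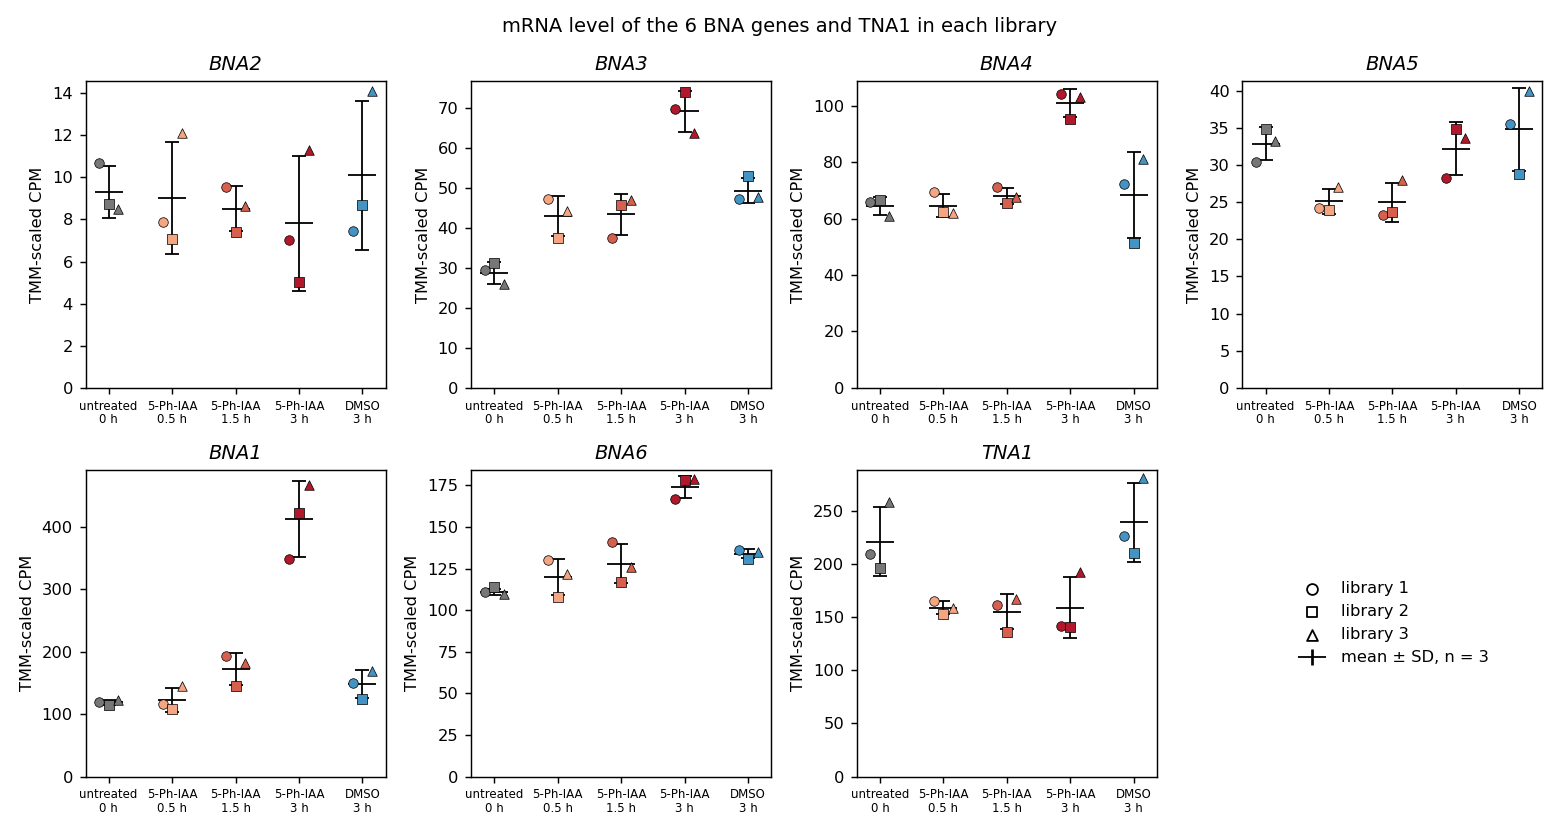
TMM-scaled CPM of each gene in each of the 15 libraries (symbols by library number), with the mean and SD of 3 libraries per group. BNA1 lies between 348 and 468 CPM at 3 h of 5-Ph-IAA and at no more than 194 CPM in any library of the other groups, and the 3 h 5-Ph-IAA libraries of TNA1 lie below those of DMSO.

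Over time the genes took different courses from untreated cells. BNA3 was higher at the earliest time, BNA1 only later, BNA4 and BNA6 passed at 3 h alone, and the TNA1 libraries lay below the untreated ones from 0.5 h on. At 0.5 h of 5-Ph-IAA, 1 of the 7 passed as higher (3.36% of all genes) and none as lower (2.78%). In either direction 3 of the 7 had an unadjusted p under 0.05 (19.4% of all genes) and 2 were called in DESeq2 (8.77%). At 1.5 h 2 passed as higher (7.86% of all genes) and 1 as lower (9.74%). At 3 h 4 passed as higher (19.6%) and 1 as lower (19.7%), so that calls were common among all genes at that time. In DMSO at 3 h 2 passed as higher (17.6%), and none as lower (18.5%), while 2 had an unadjusted p under 0.05 (45.6% of all genes) and 2 were called in DESeq2 (37.3%). Without regard to a test, 1 gene lay higher with no overlap at 0.5 h (12.4% of all genes) and 2 lower (16.6%). At 1.5 h there were 3 higher (19% of all genes) and 2 lower (22.2%), and at 3 h 4 higher (22.5%) and 1 lower (23.8%). In DMSO there were 3 higher (22.3%) and none lower (23.5%). These 4 comparisons share the untreated libraries.

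BNA3 had 29.4, 31.3 and 25.9 CPM in untreated libraries 1, 2 and 3, then 47.3, 37.5 and 44.2 CPM at 0.5 h and 37.6, 45.7 and 47 CPM at 1.5 h of 5-Ph-IAA. All libraries at both times lay above all untreated ones. The log2 changes were 0.58 (SE 0.13), 0.59 (SE 0.13) and 1.26 (SE 0.13) at 0.5 h, 1.5 h and 3 h, and 0.77 (SE 0.12) in DMSO at 3 h. BNA3 was thus also higher in cells that received solvent alone. At 0.5 h BNA3 no longer passed without untreated library 3 or 5-Ph-IAA library 1.

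BNA1 had 120, 115 and 122 CPM in untreated cells and 116, 109 and 146 CPM at 0.5 h, groups that overlapped. At 1.5 h it had 194, 145 and 182 CPM, all above the untreated libraries, a change of 0.54 log2 (SE 0.15). At 3 h the change was 1.80 log2 (SE 0.16), 3.47 times the untreated level, and in DMSO it was 0.32 log2 (SE 0.15) and passed only with total counts. The DMSO libraries, at 125 to 170 CPM, also all lay above the untreated ones. The rise at 1.5 h no longer passed without any single untreated library or without library 1 or 3 at 1.5 h, whereas that at 3 h passed in every fit tried.

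BNA4 kept to 60.9 to 66.7 CPM in untreated cells, 62.1 to 69.3 at 0.5 h and 65.5 to 71 at 1.5 h, and rose by 0.65 log2 (SE 0.13) at 3 h. In DMSO at 3 h it differed by 0.08 log2 (SE 0.13) from untreated cells. BNA6 had 111, 114 and 110 CPM in untreated cells, 130, 108 and 122 at 0.5 h and 141, 117 and 126 at 1.5 h. Its changes were 0.11 and 0.20 log2 (SE 0.1 each) at 0.5 h and 1.5 h, which did not pass, and 0.65 (SE 0.1) at 3 h. In DMSO BNA6 was higher by 0.27 log2 (SE 0.1), a call that ended whenever any library was left out.

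TNA1 had 209, 196 and 258 CPM in untreated cells, 165, 153 and 159 at 0.5 h and 161, 136 and 167 at 1.5 h of 5-Ph-IAA. Every library at the 3 times of 5-Ph-IAA lay below every untreated one. The log2 changes were -0.47 (SE 0.15), -0.52 (SE 0.15) and -0.47 (SE 0.15) at 0.5 h, 1.5 h and 3 h, and 0.11 (SE 0.15) in DMSO, where the libraries overlapped those of untreated cells. The first of these did not pass in edgeR but did in DESeq2, with total counts, with the compared groups alone and with replicate number as a block. The difference at 3 h did not pass with total counts (-0.33 log2), with the compared groups alone (-0.46), or without untreated library 3, 5-Ph-IAA library 1 or 5-Ph-IAA library 2 (-0.31, -0.40 and -0.37). That at 1.5 h did not pass without untreated library 3 or without library 1 or 2 at 1.5 h.

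BNA5 had 30.4 to 34.8 CPM in untreated cells, 24 to 27.1 CPM at 0.5 h and 23.3 to 28 CPM at 1.5 h, with no overlap. The differences from untreated cells were -0.39 log2 at both times (SE 0.14 and 0.15) and did not pass. At 3 h of 5-Ph-IAA it differed from untreated cells by -0.03 log2 (SE 0.15). BNA2 had changes of -0.07, -0.12 and -0.16 log2 (SE 0.29 to 0.3) at 0.5 h, 1.5 h and 3 h, all within the spread of its libraries.

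**Figure D3:**
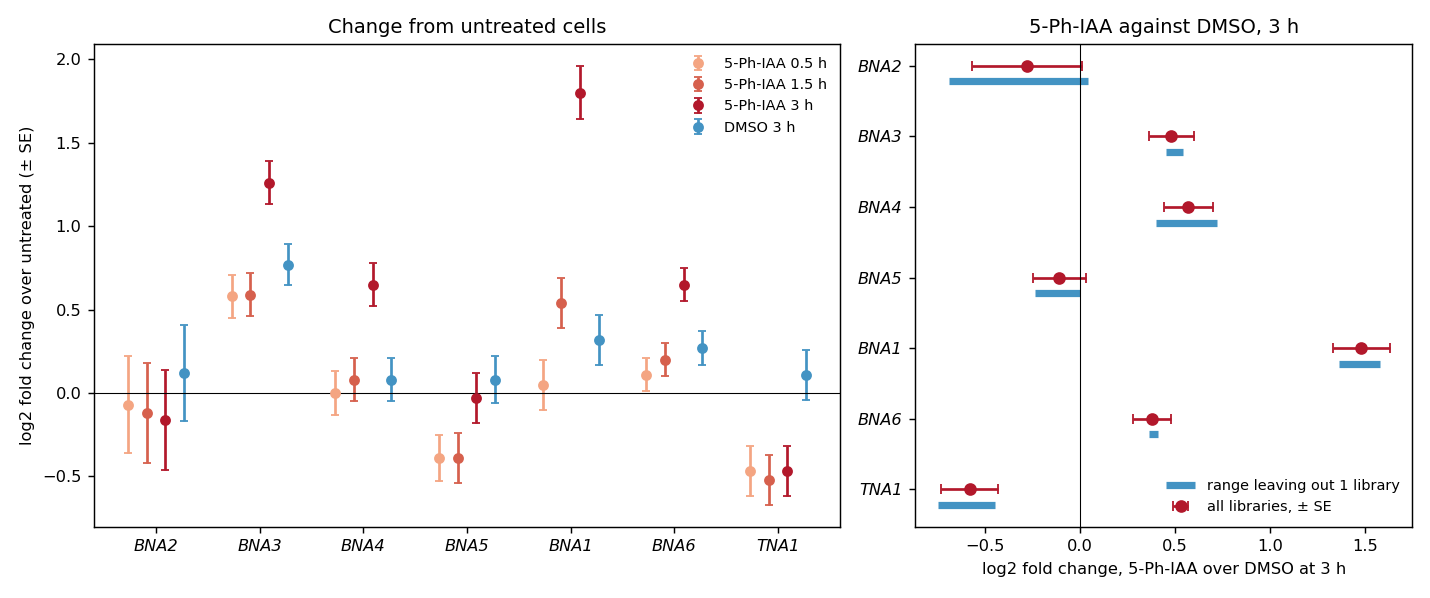
Left, log2 fold change of each gene from untreated cells (± SE of the fit) at 3 times of 5-Ph-IAA and in DMSO at 3 h. Right, log2 fold change of 5-Ph-IAA over DMSO at 3 h (± SE), with bars for the range of values when 1 of the 6 libraries of these groups is left out; BNA1 stays between 1.36 and 1.58, and BNA2 spans -0.69 to 0.04.

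Between successive times of 5-Ph-IAA, calls among the 7 genes came in the later step. From 0.5 h to 1.5 h none of the 7 passed in edgeR, with 1 at an unadjusted p under 0.05 (11.2% of all genes) and none called in DESeq2 (2.87%). Here edgeR called 0.923% of all genes higher and 0.214% lower, and none lay apart without overlap (11.9% higher and 13.2% lower over all genes). BNA1 had the largest difference, 0.49 log2 (SE 0.15) for 1.5 h over 0.5 h, and it passed with total counts. From 1.5 h to 3 h 4 passed as higher (8.90% of all genes) and none as lower (6.94%), while 5 lay higher without overlap (16% of all genes) and none lower (16.2%). The first was BNA1, higher by 1.25 log2 (SE 0.15), followed by BNA3 at 0.67 (SE 0.13), BNA4 at 0.57 (SE 0.13) and BNA6 at 0.45 (SE 0.1). The same 4 passed on leaving out any library of these groups. BNA5 differed by 0.36 log2 (SE 0.15) without overlap but did not pass, and TNA1 by 0.04 (SE 0.15). Cells given solvent alone were not sampled at 1.5 h, so this step also holds changes with time in culture.

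Likeness between courses was measured as the root mean square difference of the log2 changes from untreated cells, over the 4 treated groups. BNA4 and BNA6 were the closest pair of the 7 at 0.13, followed by BNA5 and TNA1 at 0.237 and BNA2 and BNA5 at 0.252. BNA1 was nearest to BNA3 at 0.44 and farthest from TNA1 at 1.277, the widest distance among the 21 pairs. Among 5217 genes with a mean of at least 10 CPM, those nearest to the mean course of the 7 were HBT1 (0.037), CMP2 (0.059), MSB3 (0.06), VPS34 (0.061), STP2 (0.062) and GPI18 (0.066). BNA4 and BNA6 ranked at 87 and 99 and the other 4 ranked members at 2602 or beyond, so that this mean is near the course of few of its own genes. BNA2 was under 10 CPM and was not ranked.

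The genes nearest to BNA1 alone, a comparison added after its values were seen, were GCV1 of the glycine cleavage system (0.119), YIL165C (0.14), ARG7 of arginine synthesis (0.192), STR2 of sulfur amino acid metabolism (0.203), RIB5 of riboflavin synthesis (0.214) and SRY1 (0.222). GCV1 changed by -0.01, 0.39, 1.63 and 0.42 log2 at 0.5 h, 1.5 h and 3 h of 5-Ph-IAA and in DMSO, where BNA1 changed by 0.04, 0.53, 1.78 and 0.31 as group means of log2 CPM. Within 0.2 of BNA1 there were 3 genes, and within 0.2 of BNA3 there were 19, led by RFS1 (0.07) and YOL038C-A (0.103).

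Related genes were read from lists chosen for their roles, but with earlier results of these libraries known. Their adjusted p-values, over all genes tested in edgeR, are therefore a description and not independent support. Counts per list are set beside the share of all genes called, and a single call is not read as a result about its list. Among these 7 lists, that for tryptophan, the starting material of the route, and for aromatic aminotransferases had the most genes called against DMSO. This list held 9 genes for tryptophan synthesis and uptake and for aminotransferases that can act on kynurenine. Of these, 5 were higher under 5-Ph-IAA than in DMSO (5.07% of all genes) and none lower (2.87%), with a median of 0.60 log2. ARO8, an aromatic aminotransferase, had 767, 677 and 713 CPM under 5-Ph-IAA against 366, 360 and 403 CPM in DMSO (0.93 log2, SE 0.1, adjusted p = 2.19e-05). TRP5, the last enzyme of tryptophan synthesis, had 580, 601 and 623 CPM under 5-Ph-IAA against 361, 294 and 362 CPM in DMSO (0.83 log2, SE 0.11, adjusted p = 0.000234). TRP2 (0.72 log2, adjusted p = 0.00057) and TRP4 (0.74, adjusted p = 0.000826) were higher as well, and TRP3 was the fifth. None of these groups overlapped, while the permease genes TAT1 (0.02 log2, adjusted p = 0.964) and TAT2 (0.11, adjusted p = 0.66) did. The remaining genes, TRP1 and ARO9, were not called in edgeR either. TRP1 had 18.2 ± 1.99 CPM under 5-Ph-IAA and 18.1 ± 2.01 CPM in DMSO at 3 h. ARO9 had 189 ± 14.8 and 146 ± 18.8 CPM, and its groups did not overlap (177 to 206 CPM against 133 to 168 CPM). DESeq2 called 6 of the 9 higher than in DMSO and none lower, and 663 of the 6798 gene rows with a count in either direction. At 0.5 h none of the 9 passed in edgeR against untreated cells, with 1 at an unadjusted p under 0.05 (19.4% of all genes). At 1.5 h TAT2 and ARO9 passed as lower than in untreated cells (9.74% of all genes) and none as higher (7.86%). ARO9 had 112 ± 3.44 CPM at 1.5 h and 157 ± 5.79 CPM in untreated cells, and TAT2 had 174 ± 19.6 and 222 ± 4.48 CPM. Against untreated cells the same 5 were higher at 3 h of 5-Ph-IAA (19.6% of all genes), by 0.36 (TRP2), 0.55 (TRP5), 0.64 (TRP3), 0.68 (ARO8) and 0.73 log2 (TRP4). In DMSO TRP2 and TAT2 were lower than in untreated cells (18.5% of all genes). DESeq2 called 4 of the 9 there, all of them lower, against 37.3% of all genes in either direction. The share of all genes that DESeq2 called lower was not worked out. TRP2 had 303 ± 26.9 CPM under 5-Ph-IAA and 184 ± 20.4 CPM in DMSO at 3 h, against 236 ± 10.9 CPM in untreated cells, and TRP5 had 601 ± 21.4, 339 ± 39.3 and 411 ± 28.6 CPM in these groups, so the difference from DMSO was larger than that from untreated cells for both.

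Of 13 other genes of NAD synthesis, salvage and uptake, BNA7 among them, NRK1 was higher than in DMSO (5.07% of all genes). None was lower (2.87%), and the median was 0.13 log2. At an unadjusted p under 0.05 there were 4, a rule whose share of all genes was not worked out here. DESeq2 called 2 of the 13 higher and none lower, and 663 of the 6798 gene rows with a count in either direction. NRK1, the nicotinamide riboside kinase, had 126, 94.1 and 98.2 CPM under 5-Ph-IAA against 85.3, 65.7 and 60 CPM in DMSO (0.60 log2, SE 0.15, adjusted p = 0.0213). It no longer passed with the compared groups alone (adjusted p = 0.172), without 5-Ph-IAA library 1 (0.0995) or without DMSO library 2 (0.0658) or 3 (0.0722). NPT1, which joins nicotinic acid to phosphoribose (-0.04 log2, adjusted p = 0.905), and PNC1, the nicotinamidase (0.38, adjusted p = 0.322), did not pass. Against untreated cells 5 of the 13 were higher at 1.5 h of 5-Ph-IAA (7.86% of all genes) and 5 at 3 h (19.6%). In DMSO 3 were higher (17.6% of all genes), namely PNC1, POF1 and ISN1, all among the 5 of 5-Ph-IAA at 3 h. POF1 had 48 ± 2.65 CPM under 5-Ph-IAA and 49.3 ± 4.34 CPM in DMSO at 3 h, against 31.7 ± 5.61 CPM in untreated cells. PNC1 reached 223 ± 9.1 CPM at 3 h of 5-Ph-IAA against 75.9 ± 25.4 CPM in untreated cells (1.55 log2, adjusted p = 3.78e-05), and it rose in DMSO too (172 ± 43.2 CPM, 1.18 log2, adjusted p = 0.000526). NRT1, the nicotinamide riboside transporter, fell at 0.5 h (-0.38 log2, adjusted p = 0.0422) and 1.5 h (-0.43, adjusted p = 0.00996).

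Of 5 NAD kinases and mitochondrial NAD carriers, POS5, the mitochondrial NADH kinase, was higher than in DMSO (5.07% of all genes). None was lower (2.87%), and the median was 0.01 log2. POS5 had 289, 184 and 145 CPM under 5-Ph-IAA against 118, 128 and 83.8 CPM in DMSO (0.90 log2, SE 0.23, adjusted p = 0.0246). Library 1 was far above the others, and without it POS5 did not pass (0.57, adjusted p = 0.133), nor with the compared groups alone (adjusted p = 0.142), nor without DMSO library 1 (0.0634) or 3 (0.0811). UTR1, the cytosolic NAD kinase (0.14 log2, adjusted p = 0.679), and YEA6, a mitochondrial NAD carrier (-0.10, adjusted p = 0.647), did not pass.

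None of 5 sirtuin genes, which consume NAD, passed against DMSO in edgeR or DESeq2, with none at an unadjusted p under 0.05 (median -0.05 log2). In edgeR 5.07% of all genes were higher and 2.87% lower. Against untreated cells HST3 was lower at 3 h of 5-Ph-IAA (38.1 ± 1.51 CPM, against 79.7 ± 5.72 CPM in untreated cells, -1.06 log2, adjusted p = 1.94e-06) and in DMSO (40.2 ± 0.542 CPM, -0.99, adjusted p = 5.62e-06). SIR2 was likewise lower in both 3 h groups (25.7 ± 4.1 CPM under 5-Ph-IAA and 26.1 ± 3.19 CPM in DMSO, against 43.3 ± 1.71 CPM in untreated cells), and HST2 was higher in both (101 ± 15.9 CPM under 5-Ph-IAA and 82.5 ± 9.33 CPM in DMSO, against 54.7 ± 5.35 CPM in untreated cells). HST4 was called lower than in untreated cells only under 5-Ph-IAA, and its difference from DMSO was not called (-0.29 log2, adjusted p = 0.386). Of the 5 known regulators of BNA genes, none passed against DMSO in edgeR, with 1 at an unadjusted p under 0.05 and 1 called in DESeq2 (median 0.01 log2). DESeq2 called 663 of the 6798 gene rows with a count, in either direction, and the share of all genes at an unadjusted p was not worked out. HST1 had 121, 117 and 104 CPM under 5-Ph-IAA and 123, 128 and 103 CPM in DMSO (-0.05 log2, SE 0.11, adjusted p = 0.84). SUM1 differed by 0.01 log2 (adjusted p = 0.969). BAS1, named after its values were seen, had 84.3 ± 9.39 CPM under 5-Ph-IAA and 63.6 ± 5.3 CPM in DMSO (0.41 log2, adjusted p = 0.051). Both means lay below the 104 ± 14.6 CPM of untreated cells. Against untreated cells BAS1 was called lower at 1.5 h of 5-Ph-IAA (9.74% of all genes) and in DMSO (18.5%). SUM1 was lower and PHO2 higher in both 3 h groups, and RFM1 was lower at 3 h of 5-Ph-IAA. At 3 h of 5-Ph-IAA 19.6% of all genes were higher and 19.7% lower, and in DMSO 17.6% were higher. Such mRNA levels do not report the activity of these proteins.

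Of 12 purine and one-carbon genes under Bas1 and Pho2, 1 was higher than in DMSO (5.07% of all genes) and none was lower (2.87%), with a median of 0.04 log2. It was ADE12, of adenine nucleotide synthesis, with 544, 444 and 462 CPM under 5-Ph-IAA against 271, 251 and 310 CPM in DMSO (0.80 log2, SE 0.14, adjusted p = 0.00221). ADE6 (-0.02 log2, adjusted p = 0.961) and ADE5,7, listed as ADE57 (0.02, adjusted p = 0.942), did not pass. Against untreated cells ADE2, ADE12 and ADE17 were higher at 3 h of 5-Ph-IAA (19.6% of all genes), and ADE2 and ADE17 in DMSO (17.6%). ADE17 had 58.9 ± 14.3 CPM in untreated cells, 139 ± 41.3 CPM under 5-Ph-IAA and 131 ± 31.2 CPM in DMSO at 3 h. MTD1 was lower than in untreated cells at 0.5 h (2.78% of all genes). Of 9 middle sporulation genes under Sum1 and Hst1, SPS4 was lower (5.11 ± 1.06 CPM under 5-Ph-IAA against 13.5 ± 1.89 CPM in DMSO, -1.44 log2, adjusted p = 0.00534) and none was higher (median -0.39 log2). Over all genes 2.87% were lower and 5.07% higher. SMK1 (-0.31 log2, adjusted p = 0.511) and DIT1 (0.27, adjusted p = 0.394) did not pass.

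**Figure D4:**
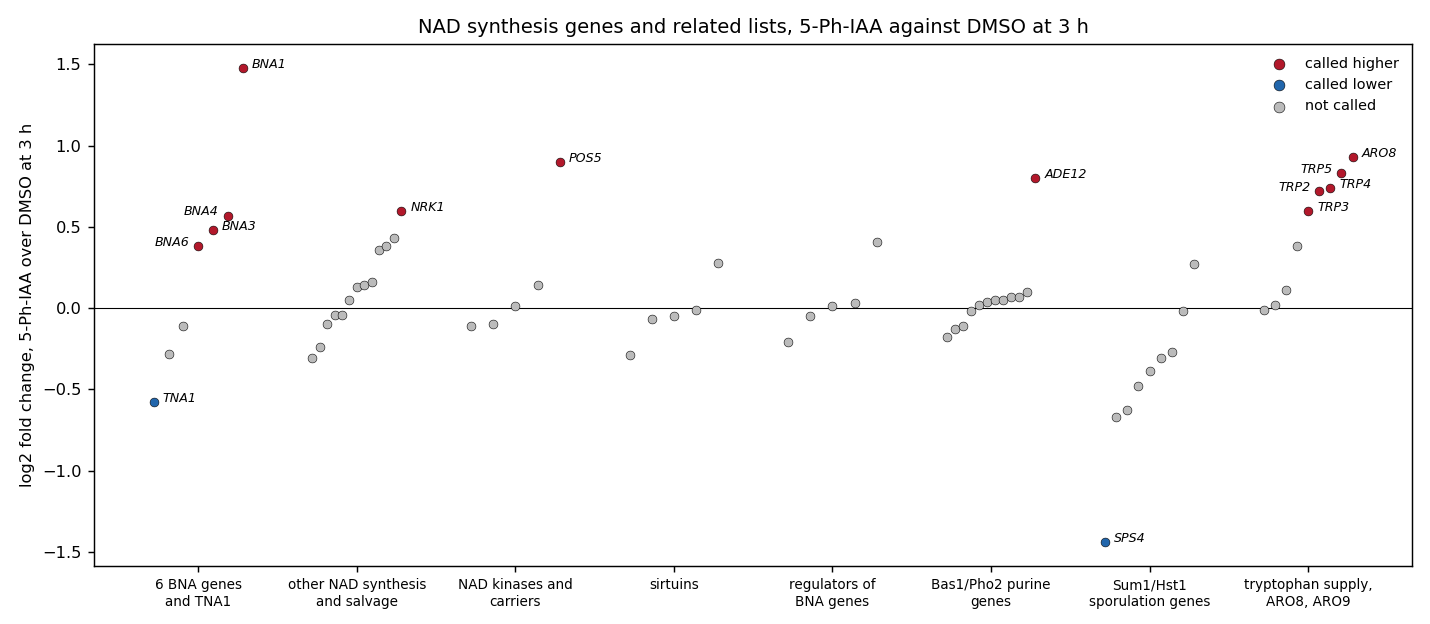
Log2 fold change of 5-Ph-IAA over DMSO at 3 h for the 7 genes and for the related lists (each point a gene, spread sideways in order of its value), coloured by the edgeR call. BNA1 at 1.48 is the highest point, and 5 of the 9 genes of tryptophan supply and aromatic aminotransferases are called higher, against 1 of 13 other NAD synthesis and salvage genes. Over all genes 5.07% were called higher.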

How the data were processed

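RNA of 15 libraries was measured in 5 groups of 3. The authors deposited raw counts of reads per gene; per the submitters' processing notes FastQC 0.11.5, STAR 2.7.0 and DESeq2 1.34.0 were used with build R64. How reads were assigned to genes, by strand or where they match several, is not given in the sources used here. BNA2 overlaps YJR079W, which had 0 to 26 counts in a library, and no other gene was similar to any of the 7 in blastn.

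The model, in edgeR 4.0.16 with limma 3.58.1 under R 4.3.3, used the counts with TMM scaling. After filterByExpr 6069 genes, all 7 among them, were kept, with 1 mean per group over all libraries and the quasi-likelihood test, two-sided, with Benjamini-Hochberg adjustment at 0.05 within each of 7 comparisons. Library sizes after TMM gave CPM, and 1 was the prior count of log2 CPM. Standard errors came from the F statistic. The code was tested on simulated data. DESeq2 1.42.0, other scalings and filters, the compared groups alone, a replicate block and leaving out each library were alternatives. The members and lists were chosen with earlier results of these data known. Named genes were all 7, and from each list up to 4 called with the smallest adjusted p and 2 not called with the highest CPM.

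Replicate numbers are shared between groups. Deviations from the group means correlated at 0.196, 0.302 and 0.586 for the same numbers between 5-Ph-IAA and DMSO at 3 h, so a fit of those 6 libraries with number as a block was added. Nothing in the labels says that a number marks a shared culture or day. In each other comparison at least 1 correlation was under 0.1. Plots used matplotlib 3.10.9 (Python 3.11.15).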

Additional observations from a re-analysis of the deposited data

How the results depend on the processing

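In all alternatives run, no fold change of the 7 genes that passed changed sign. Against DMSO, the 5 genes called for 5-Ph-IAA became 3 with total counts and 1 with the compared groups alone, and 2 to 4 on leaving out a library. With replicate number as a block, over all libraries or the 6 libraries of 3 h, all 5 were called. At 0.5 h the 1 gene called became 2 with DESeq2, total counts, the compared groups alone or the replicate block, and 0 to 1 without a library. At 1.5 h the 3 called became 1 to 2 without a library. At 3 h against untreated cells the 5 called were 4 to 5, and for 3 h against 1.5 h the 4 called were 4 throughout. In DMSO the 2 called became 1 with the compared groups alone, 1 with the replicate block and 1 on leaving out any single library. For 1.5 h against 0.5 h, 0 became 1 with total counts. Replicate block changed no other call of the 7. Over all genes, the compared groups alone gave 151 calls in place of 482 for 5-Ph-IAA against DMSO, 568 in place of 373 at 0.5 h, 222 in place of 69 for 1.5 h against 0.5 h, and 631 in place of 961 for 3 h against 1.5 h. For 1.5 h against 0.5 h DESeq2 gave 165 and total counts 115. Leaving out a library gave 272 to 562, 178 to 274, 577 to 851, 23 to 42 and 523 to 1287 for 5-Ph-IAA against DMSO, 0.5 h, 1.5 h, 1.5 h against 0.5 h and 3 h against 1.5 h. The cause was not tested. Total counts moved the median of all genes by 0.14 for 5-Ph-IAA and 0.2 for DMSO, both at 3 h over untreated cells, and by 0.12 for 1.5 h against 0.5 h, and the share of calls that were higher by 12.2 to 25.5 points in size, to 41% at 0.5 h, 58.5% at 1.5 h, 64.8% at 3 h, 74.2% in DMSO, 95.7% for 1.5 h against 0.5 h and 68.4% for 3 h against 1.5 h. The 6 genes nearest to the mean course were the same 6 with total counts and with a prior count of 5. BNA2 had the fewest counts of the 7 genes, 13 in its lowest library.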
